A study of Drosophila melanogaster with 11 samples.

Results

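Cytoplasmic ribosomal protein genes encode the proteins of the large (RpL) and small (RpS) subunit of the cytoplasmic ribosome, and they were taken as a group across the cells of the Drosophila wing disc. Members were all genes whose symbol begins with RpL or RpS followed by a number or a capital P, with 100 or more counted transcripts over all libraries, and genes of the mitochondrial ribosome (mRp) were left out. Of 16503 genes, 91 matched by name and 88 were kept, 52 RpL and 36 RpS genes. The last members above the threshold were RpL10Aa (108 transcripts), RpS19b (112), RpS10a (121) and RpL22-like (128), and RpS28a (54), RpL37b (38) and RpS28-like (15) lay below it. The rule used no measured difference between cells, although members were chosen with earlier results of these data known.

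Each ribosome needs a single copy of nearly every ribosomal protein, so that growing cells make these proteins in balanced amounts, and their mRNAs are among the most abundant of any cell. In Drosophila, loss of 1 copy of many of these genes gives the Minute phenotype of slow development and thin bristles, and in wing discs Minute cells are removed when they lie next to wild-type cells, a process known as cell competition. The wing disc of the late larva holds a folded epithelium, the adult muscle precursors (myoblasts) that lie on its notum, and a few tracheal cells.

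Single cells were profiled by Drop-seq, in which each cell is enclosed in a droplet with a barcoded bead. Its primers carry unique molecular identifiers (UMIs), and distinct UMIs were counted in place of reads, which removes PCR copies. Discs came from wandering larvae of the last instar raised at 25 °C, with notum and hinge kept and the pouch cut away. Of the 11 libraries, 4 carried the driver P{1151-GAL4} alone (1151-GAL4, replicates 1 to 4) and 4 carried it with P{VALIUM20-mCherry} at attP2, a hairpin against a gene that flies lack (1151>mCherry-RNAi, replicates 5 to 8), and both served as wild type. The other 3 carried the driver with P{TRiP.Ama_HMS00297} at attP2, a hairpin against the adhesion gene Amalgam (1151>Ama-RNAi, replicates 1, 4 and 5). The driver is active in myoblasts, so that every group carries GAL4 and the hairpins are expected in myoblasts and not in the epithelium. The submitters' short names of mCherry-RNAi replicates 6 to 8 and of all libraries labelled Ama-RNAi contain a letter P that those of the other 5 lack, and its meaning is not given in the sources used here. No label names a preparation date, so that line and preparation cannot be told apart, and p-values measure the spread between these libraries only.

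The libraries held between 1335977 and 10548893 UMIs, and 26085 barcodes with 200 to 2500 detected genes were taken as cells, of which 19 barcode sequences occurred in more than 1 library. Myoblasts were cells with 2 or more UMIs of Him, zfh1, twi and CG9650 in sum, epithelial cells those with 2 or more UMIs of Fas3, grh, ImpE1 and ImpE2, and tracheal cells those with 2 or more UMIs of trh and Cht5. Cells that met the myoblast rule and another were left out, while those that met the tracheal and the epithelial rule counted as tracheal only. The wild-type libraries held 149 to 1945 myoblasts and 329 to 3295 epithelial cells each, whereas only 1151-GAL4 replicates 3 and 4 held more than 10 tracheal cells (34 and 41). Other markers bore the names out: in UMIs per 1000000 UMIs of the class (CPM), 5 further myoblast genes (Ama among them) summed to 2064 to 2846 in wild-type myoblasts and 258 to 368 in epithelium, and 5 further epithelial genes to 43.9 to 249 and 1256 to 2039. The 4 further tracheal genes summed to 309 to 1696 CPM in tracheal cells and 162 to 237 in epithelium, so that this class was less sharply set apart. Markers of hemocytes (at most 27.7 CPM) and of the fat body (at most 13.9) were near 0 in wild-type myoblasts and epithelium. The 3 neuron markers were not, with 84.6 to 158 CPM in myoblasts and 48.7 to 146 in epithelium. Most of this was elav, with a mean of 92.0 and 88.1 CPM. Ama itself stood at 68.3 to 92.4 CPM over all cells of the libraries labelled Ama-RNAi and at 38.9 to 130 in wild type, so that the hairpin's target did not check the label. In the few cells that met the myoblast rule there (6, 15 and 35), 1, 8 and 7 Ama UMIs gave 160, 366 and 208 CPM, against 35.1 to 230 CPM in wild-type myoblasts. These values lay within or above the range of wild type, and their exact 95% Poisson intervals are wide (4.04 to 889, 158 to 722 and 83.7 to 429 CPM, for counting error only). These 3 libraries are therefore called by their label, and no lower level of Ama was measured in them. Myoblasts were few there, 6, 15 and 35 beside 1010, 524 and 1185 epithelial cells, against 149 to 1945 beside 329 to 3295 in wild type. The paper also reports a severe loss of myoblasts in this group.

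Ribosomal protein transcripts took up about 1 of 3 counted molecules: 12637606 of 37918571 UMIs, or 33.3%, over all libraries. The group was led by RpL41, which encodes a very short peptide of the large subunit, with 13018 ± 3834 CPM (SD, n = 8 wild-type libraries) in the epithelium. It was followed there by RpLP2, an acidic protein of the P-stalk that recruits elongation factors (6645 ± 1694), and RpS12, a gene needed for Minute cells to be recognised in cell competition (6406 ± 1125). RpS27A, whose protein is made as a fusion with ubiquitin, stood at 5962 ± 1453 CPM, RpS25 at 5774 ± 1079 and RpS26 at 5723 ± 1550. These SDs overlap from RpLP2 down to RpS26, so that only the first place is set apart from the rest. The members were not equal: 79 lay above 1000 CPM, and the median over all 88 was 3563. Their levels in the epithelium fell with the length of the annotated mRNA (Spearman's rho across 82 genes -0.43, as a description, with lengths from 288 to 1512 nucleotides), although each UMI stands for a molecule and no correction for length was made.

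To ask whether the muscle precursors differ from the epithelium, the summed share of the 88 genes was compared within each wild-type library, and it was higher in myoblasts in 8 of 8. In myoblasts of 1151-GAL4 replicates 1 to 4, the genes held 42.6, 44.0, 43.4 and 41.8% of UMIs, against 37.7, 38.5, 37.0 and 36.4% in the epithelium. In 1151>mCherry-RNAi replicates 5 to 8, they held 38.3, 29.4, 26.4 and 27.7% in myoblasts and 32.2, 25.1, 21.8 and 23.3% in the epithelium. Thus the 2 lines differed widely in level, while the gap between the classes was narrow in range, from 4.36 to 6.42 percentage points. The mean difference was 5.21 points (SD 0.77, n = 8; two-sided exact permutation test that flips the sign within a library, p = 0.00781, the smallest that 8 libraries allow, and 0.0469 adjusted over the 6 tests of shares). A share is relative to all UMIs of a class, so that it does not give the number of transcripts per cell.

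**Figure D1:**
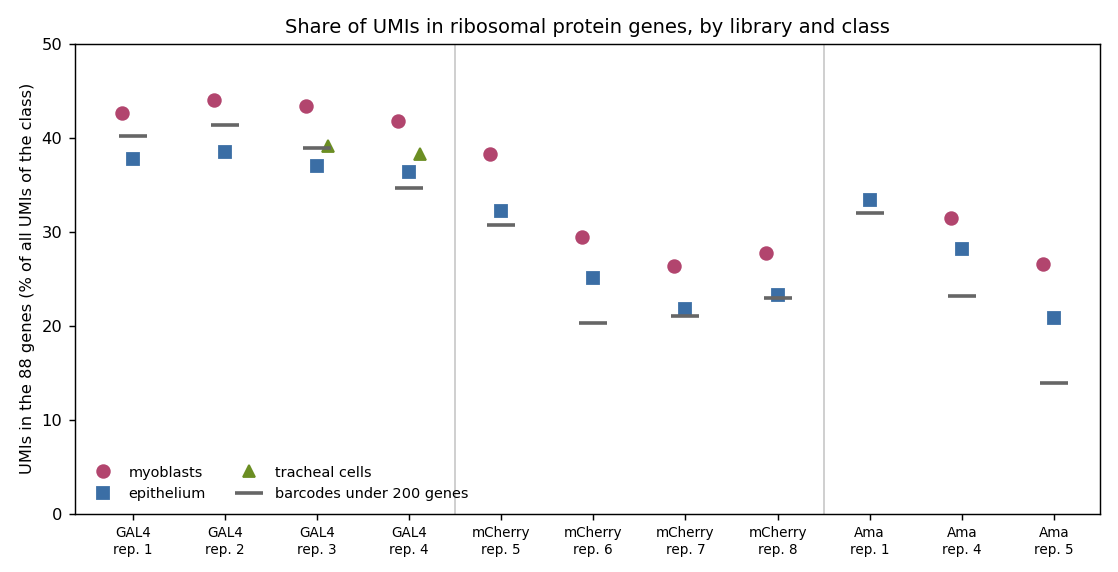
Share of UMIs in the 88 ribosomal protein genes (vertical axis, % of all UMIs of the class) in each library (horizontal axis), for myoblasts (circles), epithelium (squares), tracheal cells (triangles), each where a library held 10 or more cells of it, and barcodes with fewer than 200 genes (grey bars). Myoblasts lie above epithelium in all 8 wild-type libraries, and the epithelium ranges from 20.9% in Ama-RNAi replicate 5 to 38.5% in GAL4 replicate 2.

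The gap was present at every depth of the cell. Among cells with 200 to below 500 UMIs, the share was 3.05 to 7.79 points higher in myoblasts (median 6.06, 8 of 8 libraries). The difference was 3.32 to 7.17 points at 500 to below 1000 UMIs (8 of 8), 3.89 to 6.69 at 1000 to below 2000 (8 of 8), and 2.86 to 6.29 at 2000 or more in the 5 libraries with enough such cells. In single cells the classes overlapped. In 1151-GAL4 replicate 1, the quartiles over cells were 39.5, 42.6 and 45.7% in myoblasts and 32.8, 36.8 and 40.4% in the epithelium. Heat shock transcripts moved with the classes, from 1.08 to 2.53% of UMIs in myoblasts and from 1.98 to 4.62% in the epithelium, lower in myoblasts in 8 of 8 libraries. In barcodes with fewer than 200 genes, which may hold free RNA rather than cells, the share was 20.3 to 41.4% in wild type and followed its library. The part of either in the difference was not tested.

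**Figure D2:**
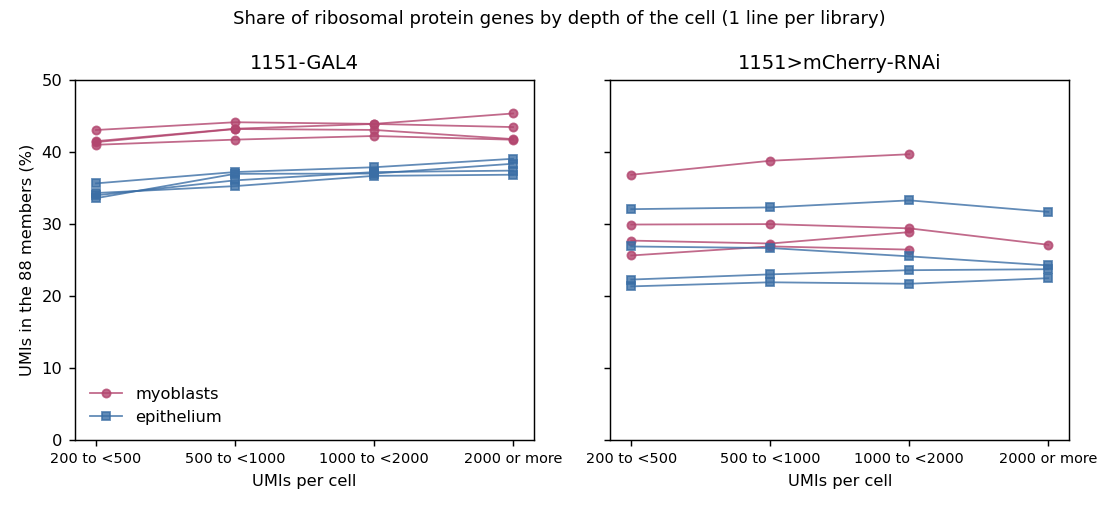
Share of UMIs in the 88 genes (vertical axis, %) against the UMIs per cell (horizontal axis, 4 bins), with 1 line per library for myoblasts (circles) and epithelium (squares), and 1 panel per wild-type line; bins with fewer than 10 cells are left out. At 500 to below 1000 UMIs the share was 3.32 to 7.17 points higher in myoblasts of the same library.

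The difference was spread over nearly the whole ribosome and was small for each gene. Of 84 members that passed the filter on low counts, 79 were called higher in myoblasts by edgeR's quasi-likelihood test with the library as a block (Benjamini-Hochberg adjusted p below 0.05 over 4682 genes), and 0 lower. Over all genes tested, 22.8% were called higher and 24.6% lower. The median log2 fold change of the tested members was 0.27, with a range of 0.07 to 0.60, beside a median of 0.00 over all genes. In CPM, 78 members were higher in myoblasts in 8 of 8 libraries. RpL37A, RpS27 and RpLP0-like were higher in 7. Of the other 7 members, RpS5b was higher in 6, RpS15Ab in 5, RpS14b and RpS19b in 4, and RpL10Aa and RpS10a in 3. RpL22-like was higher in none, and in mCherry-RNAi replicate 5 it was at 0 in both classes. The median was 0.27 for RpL and 0.24 for RpS genes, a difference that was not tested.

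**Figure D3:**
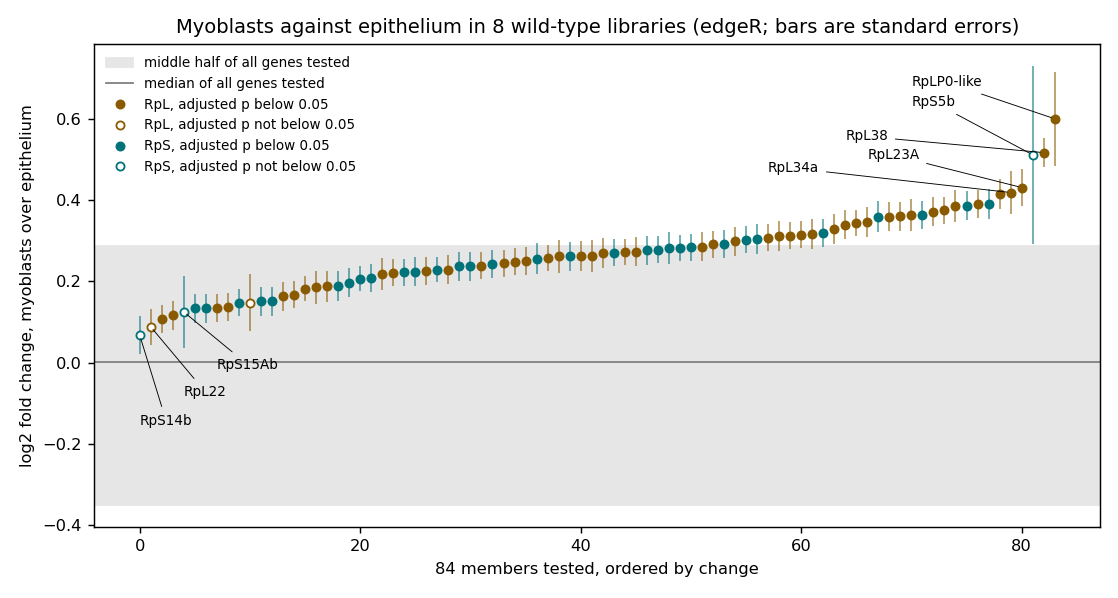
Log2 fold change of myoblasts over epithelium (vertical axis) with its standard error for the 84 tested members in order of size (horizontal axis), from edgeR over 8 wild-type libraries. Brown marks RpL and teal RpS genes, filled symbols have an adjusted p below 0.05, and the grey band spans the middle 50% of all genes tested; all 84 values lie above 0 and 79 are called.

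RpL38, a small protein at the surface of the large subunit that in mice is needed for the translation of a set of Hox mRNAs, had the largest change among the abundant members. Its level was 1995 to 7016 CPM in myoblasts (median 4851) and 1331 to 5403 in the epithelium (median 3339). The ranges overlap between classes because the libraries differ, yet myoblasts were higher in 8 of 8, with a log2 fold change of 0.52 ± 0.04 (SE; edgeR, adjusted p = 1.9e-14). RpL38 lies on chromosome 2R (BDGP6, 4515388 to 4516458, minus strand).

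RpL23A, which sits near the exit of the peptide tunnel, stood at 837 to 3265 CPM (median 2269) in myoblasts and 540 to 2718 (median 1754) in the epithelium. Its log2 fold change was 0.43 ± 0.05 (edgeR, adjusted p = 8.1e-10). RpL13A stood at 2570 to 5655 CPM (median 4701) and 1972 to 4373 (median 3577), with 0.42 ± 0.04 (7.5e-12). Both were higher in myoblasts in 8 of 8 libraries. The largest value of all belonged to RpLP0-like, a relative of the P-stalk protein RpLP0 whose yeast counterpart acts in ribosome assembly and is not part of the mature ribosome. It was rare, with 26.3 to 105.5 CPM (median 83.5) in myoblasts and 37.0 to 80.6 (median 52.6) in the epithelium, and its log2 fold change was 0.60 ± 0.12 (edgeR, adjusted p = 4.6e-05), although mCherry-RNAi replicate 5 went the other way.

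In points of the share, no single gene carried the difference. RpLP1, the partner of RpLP2 in the P-stalk, gave the most with 0.135 ± 0.026 points (SD, n = 8), or 2.59% of the summed difference, and RpL41 followed with 0.132 ± 0.069. RpL38 (0.120), RpS20 (0.117) and RpLP2 (0.114) came next, and the 10 leading genes gave 22.1% together. Without RpL41, the most abundant member, the mean difference was 5.08 points.

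The mixture of ribosomal protein transcripts was nearly the same in both classes, with small shifts that recurred. The log2 levels of the 88 members in myoblasts and epithelium correlated at r = 0.99 (across genes, which are no replicates and share their libraries). Counted within member UMIs only, 15 of 84 members took a higher share in myoblasts in 8 of 8 libraries and 15 a lower share in 8 of 8. Of the former, 12 were RpL genes, led by RpL38 with a mean log2 ratio of 0.26 (0.13 to 0.34 over libraries), RpL23A (0.18) and RpL13A (0.16), with RpS4 and RpS2 among the 3 RpS genes. Of the latter, 7 were RpL and 8 were RpS genes, led by RpS14b (-0.20), RpL22 (-0.18) and RpL17 (-0.16). RpL transcripts made up 58.3 to 62.1% of member UMIs in myoblasts and 58.0 to 61.5% in the epithelium, and this was higher in myoblasts by 0.213 to 0.724 points in 8 of 8 libraries.

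Some ribosomal proteins are encoded by duplicate genes, of which the rarer copy is often used in the germline. In the disc, these germline-type copies were nearly silent. RpL22-like held 5 UMIs in all wild-type myoblasts and 66 in the epithelium, RpL10Aa 15 and 38, RpS10a 19 and 37, and RpS19b 19 and 32, each less than 1% of its pair in every wild-type library, and all 4 were too rare for the test. RpS5b held 92 and 192 UMIs, or 0 to 2.59% of its pair in myoblasts (median 0.766) and 0.186 to 1.29% in the epithelium (median 0.432), with a log2 fold change of 0.51 ± 0.22 that did not pass (edgeR, adjusted p = 0.053). RpS28a, the copy of RpS28b, fell below the limit for members.

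Other pairs were both in use. RpL34a made up 25.2 to 39.2% of its pair with RpL34b in myoblasts (median 27.0) and 21.7 to 35.3% in the epithelium (median 23.9), higher in myoblasts in 8 of 8 libraries. It also rose by itself, from a median of 899 CPM in the epithelium to 1156 in myoblasts, with a log2 fold change of 0.42 ± 0.05 (edgeR, adjusted p = 2.8e-08), beside 0.19 ± 0.04 for RpL34b (3.4e-04). RpS14b made up 23.7 to 34.9% of its pair with RpS14a in myoblasts and 26.3 to 35.3% in the epithelium, with the higher share in myoblasts in 2 of 8. RpS14a and RpS14b lie next to each other on the X chromosome (BDGP6, 7933742 to 7934677 and 7934898 to 7935792), and since they are near-identical copies, reads may not be assigned to the right one. RpS15Ab (5.01 to 13.3% and 5.99 to 11.7% of its pair) was a minor copy whose ranges overlapped between the classes. RpL24-like is related to an assembly factor and was set beside RpL24 by its name only. It made up 5.52 to 11.3% of their sum in myoblasts and 5.73 to 10.2% in the epithelium, ranges that overlap too. RpS14b (0.07), RpS15Ab (0.13), RpL24-like (0.15), RpS5b and RpL22 (0.09) were the 5 tested members not called.

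The wider translation machinery was given from a list of initiation factors, elongation factors and ribosome-bound proteins, 37 of whose 39 entries were found. Of 36 tested, 25 were called higher and 2 lower in myoblasts, beside 22.8 and 24.6% of all genes, with a median log2 fold change of 0.22 (all genes 0.00). sta, the small-subunit protein that is not named RpS, rose by 0.22 ± 0.03 (edgeR, adjusted p = 2.2e-06) and Rack1, a scaffold on the small subunit, by 0.32 ± 0.05 (9.2e-07). The elongation factor gene Ef1alpha100E, whose mammalian counterpart is the muscle and neuron form, stood at 536 to 1085 CPM in myoblasts and 19.4 to 69.8 in the epithelium. These ranges do not overlap, and its log2 fold change was 3.98 ± 0.11 (4.4e-25). Its general counterpart Ef1alpha48D was far more abundant (3792 to 7539 and 3533 to 7072 CPM) and changed by 0.16 ± 0.03. CG5642, a subunit of the initiation factor eIF3, and eIF-2alpha, which carries the stress-sensitive phosphorylation site of eIF2, rose by 0.68 ± 0.11 and 0.65 ± 0.09. The 2 that fell were pAbp, the poly(A)-binding protein, by 0.24 ± 0.03 (1.2e-07), and eIF5 by 0.23 ± 0.08 (0.012). The call of eIF5 was lost without 1151-GAL4 replicate 4 (adjusted p = 0.0695), the only one of the 8 libraries whose omission ended it.

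In the tracheal cells, ribosomal protein genes held 39.2% of UMIs in 1151-GAL4 replicate 3 and 38.3% in replicate 4, between the epithelium (37.0 and 36.4%) and the myoblasts (43.4 and 41.8%) of these libraries. The mean difference from the epithelium was 2.004 points (SD 0.197, n = 2), and the exact permutation test cannot go below p = 0.5 with 2 libraries, which is its value (0.5 adjusted over the 6 tests). Tracheal cells were deeper, with a median of 3438 and 3978 UMIs against 1031 and 970. Among cells with 2000 or more UMIs, the share was 39.5% in 22 and 38.2% in 36 tracheal cells, and 37.4 and 36.8% in the epithelium. Of 85 members tested by edgeR, 0 were called higher and 0 lower, beside 1.32 and 1.87% of all genes, and 0 were called by DESeq2. At an unadjusted p below 0.05 there were 5 members in edgeR, beside 780 of 6962 genes. The median log2 fold change of the members was 0.00, beside -0.07 over all genes, and 44 of 85 members lay above 0. With library totals in place of TMM scaling the medians were 0.08 and 0.01, and 75 of 85 members lay above 0. Of the translation factors, pAbp alone was called, with a log2 fold change of -0.26 ± 0.05 (edgeR, adjusted p = 7.3e-05). This call was lost in DESeq2 (adjusted p = 0.756), in edgeR without the library block (0.530) and over the 7 libraries with 4 or more tracheal cells (0.527, an alternative chosen after seeing the data).

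Both wild-type lines are controls of the same study, and their ribosomal protein shares lay apart in both cell classes. In the epithelium, the 4 libraries of 1151>mCherry-RNAi (21.8 to 32.2%) lay below the 4 of 1151-GAL4 (36.4 to 38.5%) without overlap. The difference was -11.8 points (25.6 ± 4.61 against 37.4 ± 0.898, SD, n = 4 each; two-sided exact permutation test, p = 0.0286, the smallest possible, and 0.0571 adjusted over the 6 tests). In myoblasts it was -12.5 points (30.5 ± 5.37 against 43.0 ± 0.943; exact p = 0.0286, adjusted 0.0571). Since the adjusted values miss the threshold, the difference is given as measured. mCherry-RNAi replicate 5 lay between the other 3 and the 1151-GAL4 libraries, and without it the differences were -14.03 and -15.1 points. Heat shock transcripts stood at 2.64 to 4.62% of epithelial UMIs in 1151>mCherry-RNAi and 1.98 to 2.17% in 1151-GAL4, and the share of the 88 genes in barcodes with fewer than 200 genes at 20.3 to 30.7% and 34.7 to 41.4%, so that both moved with the line. Epithelial cells held a median of 551 to 903 UMIs in 1151>mCherry-RNAi and 970 to 1244 in 1151-GAL4. In the same order, a library held 4925 to 12268 and 93 to 768 barcodes with fewer than 200 genes. Replicates 6 to 8, with the lowest shares of wild type, are the wild-type libraries whose short names contain the letter P. The part of any of these in the result was not tested.

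By gene, 7 of 84 members were called lower in the epithelium of 1151>mCherry-RNAi and 0 higher, beside 3.66 and 6.43% of 5242 genes, with a median log2 fold change of -0.41 (all genes -0.01). RpL23A stood at 2551, 2718, 2252 and 2064 CPM in 1151-GAL4 replicates 1 to 4 and at 1444, 540, 659 and 771 in mCherry-RNAi replicates 5 to 8, and fell by 1.34 ± 0.31 on the log2 scale (edgeR, adjusted p = 0.013). RpL38 stood at 3413, 3455, 5096 and 5403 CPM and at 3265, 1564, 1331 and 1456, and fell by 1.07 ± 0.33 (0.0499). In both genes the groups did not overlap, and replicate 5 was the highest of its group. RpL37a, named RpL37-1 in the current annotation and distinct from RpL37A, fell by 1.01 ± 0.29 (0.038), RpL30 by 0.88 ± 0.26 (0.039) and RpL35A by 0.87 ± 0.23 (0.025), and RpS7 and RpS19a were also called. This count rested on single libraries, and the count over all genes moved as well. Without mCherry-RNAi replicate 5, 65 members were called lower, beside 404 of 5468 genes. The members were 2 without replicate 6 (129 of 5395 genes) and 0 without replicate 7 or 8 (56 of 5447 and 29 of 5450). They were 1 to 3 without a library of 1151-GAL4 (61 to 181 genes). With library totals in place of TMM scaling they were 37 (264 of 5242 genes). In DESeq2, which differs in scaling, test and filter at once, they were 20 (183 of 15889).

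Not all members followed. RpL3, at the peptidyl transferase centre, stood at 3497, 3791, 2874 and 2813 CPM in 1151-GAL4 and 2453, 3503, 2908 and 3125 in 1151>mCherry-RNAi (log2 fold change -0.03 ± 0.19), and RpLP0, the base of the P-stalk, changed by 0.01 ± 0.20. These groups overlap. Of the translation factors, pAbp stood at 7690 to 8929 CPM in 1151-GAL4 and 15597 to 19320 in 1151>mCherry-RNAi, higher by 1.22 ± 0.23 on the log2 scale (edgeR, adjusted p = 0.0052). The initiation factor genes eIF-2beta (1.21 ± 0.21, 0.0039), eIF5B (1.20 ± 0.21, 0.0039), eIF-4B and eIF4G were called higher too, and Nacalpha, which binds nascent chains at the ribosome, had a log2 fold change of -0.65 ± 0.20 (0.046). Thus 5 of 36 factors were called higher and 1 lower, beside 6.43 and 3.66% of all genes. The count of higher factors was 4 or 5 with any 1 library left out. The call of Nacalpha was kept in only 1 of these 8 fits (adjusted p up to 0.162), and the count of lower factors was 5 without mCherry-RNAi replicate 5 and 0 without each of the other 7, while it was 6 in DESeq2 and 5 with library totals.

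In the libraries labelled 1151>Ama-RNAi, the epithelium held 33.4, 28.2 and 20.9% in replicates 1, 4 and 5, all within the range of wild type (21.8 to 38.5%) except the last. The difference from 8 wild-type libraries was -4.03 points (27.5 ± 6.30, n = 3, against 31.5 ± 7.03, n = 8; two-sided exact permutation test, p = 0.388, adjusted 0.465). Against 1151>mCherry-RNAi alone, which also carries a hairpin, it was 1.88 points (exact p = 0.6), the opposite direction, so that no direction can be given. Leaving out Ama-RNAi replicate 5 brought it to -0.72, replicate 1 to -6.99. In the 15 and 35 cells that met the myoblast rule in replicates 4 and 5, the genes held 31.5 and 26.6%, or 3.33 and 5.74 points above the epithelium of the same library. Their difference from wild-type myoblasts was -7.67 points (29.1 ± 3.46, n = 2, against 36.7 ± 7.59, n = 8; exact permutation p = 0.311, adjusted 0.465). These cells had 1282 to 1487 CPM of the further myoblast genes, below every wild-type library, and 238 to 479 of the epithelial genes, and 45.8 to 160 of the hemocyte genes, against 43.9 to 249 and 0 to 27.7 in wild type (all 3 libraries labelled Ama-RNAi, the 6 cells of replicate 1 included). The cells of replicates 1, 4 and 5 held only 6265, 21840 and 33634 UMIs, so that 1 UMI in replicate 1 equals 160 CPM. The hemocyte and epithelial values thus rest on very few UMIs, and no content of other cell types was read from them.

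No member was called between the epithelium of the libraries labelled 1151>Ama-RNAi and wild type, 0 of 84, beside 0.0347% of 5770 genes called higher and 0.0173% lower. At an unadjusted p below 0.05 there was 1 in edgeR, beside 224 of 5770 genes. DESeq2 gave 7 at this limit, for which the count over all genes was not taken, and called 0 after adjustment. The 1 gene was RpL39, a small protein that lines the exit tunnel, with 5457, 5450 and 5076 CPM in Ama-RNAi replicates 1, 4 and 5 and 2325 to 4957 in wild type. These groups do not overlap, but the gene was picked out of 84 by its p-value. Its log2 fold change was 0.61 ± 0.27 (edgeR, adjusted p = 0.9997). The median log2 fold change of the members was -0.21 against all wild type and 0.05 against 1151>mCherry-RNAi alone.

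Beyond the summed share, single members stood apart in single libraries, and they did so in both cell classes alike. In 1151-GAL4 replicate 4, RpL22 held 0.16% of member UMIs in the epithelium, against 0.395 to 0.944% in the other 10 libraries. Its level there was 584 CPM in the epithelium and 593 in myoblasts, the lowest of all libraries in both. RpL34b (-0.80 on the log2 scale from the median library), RpS14a (-0.79) and RpS14b (-0.76) were at their lowest share in this library too.

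RpL39 and RpL41 showed another pattern. RpL39 took up 0.62 and 0.67% of member UMIs in 1151-GAL4 replicates 1 and 2 and 1.126 to 2.43% elsewhere, with the 3 libraries labelled Ama-RNAi at the top (1.63 to 2.43%). RpL41 took up 2.99 and 3.43% in the same pair of libraries and 3.75 to 5.19% in the others. These short mRNAs were thus rarest in the same 2 libraries.

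The 3 libraries mCherry-RNAi replicates 6 to 8 were alike in their mixture. In them, RpL3 held 1.33 to 1.40% of member UMIs against 0.761 to 1.01% elsewhere and RpLP0 1.10 to 1.17% against 0.603 to 0.845%. RpL38 held 0.610 to 0.626% against 0.898 to 1.48%, RpL23A 0.216 to 0.331% against 0.448 to 0.706%, and RpS20 1.04 to 1.133% against 1.47 to 1.94%. None of these ranges overlap, and replicate 5 of the same line lay with the other libraries. Across 82 abundant members, the deviations of a library from the median correlated between myoblasts and epithelium at r = 0.83 to 0.98 in the 8 wild-type libraries, as a description across genes, since both classes share the library.

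**Figure D4:**
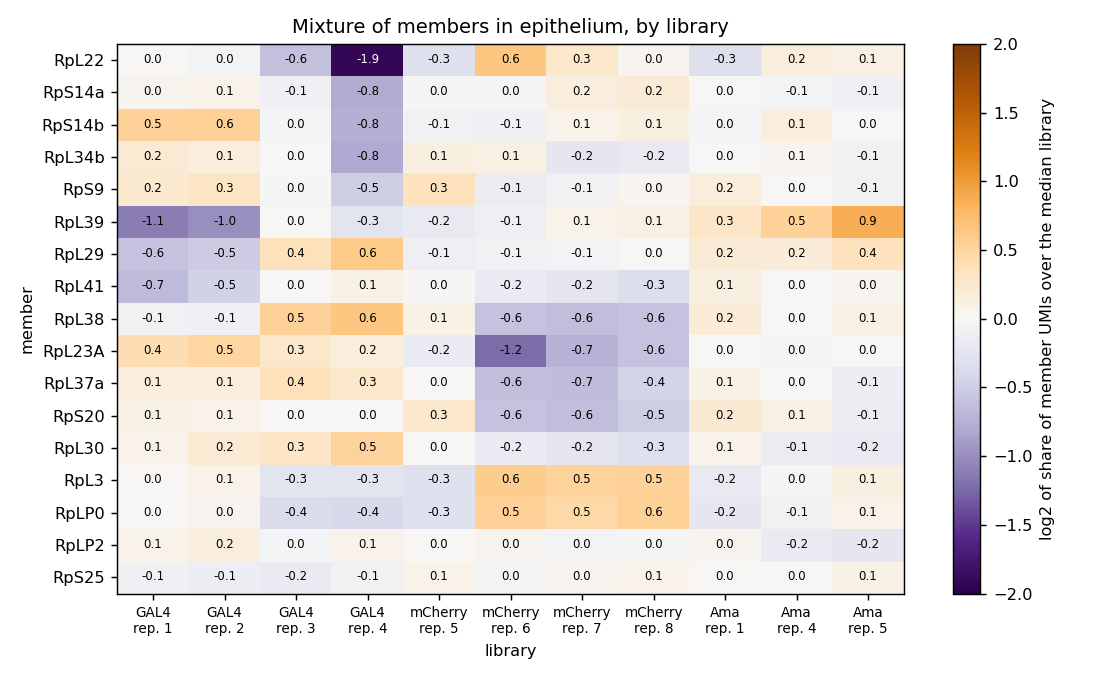
Share of 17 members among all member UMIs in the epithelium of each library (columns), as the log2 ratio over the median library (colour and printed value; rows are members chosen for display after their values were seen). RpL22 reaches -1.9 in GAL4 replicate 4, RpL39 is lowest in GAL4 replicates 1 and 2, and mCherry-RNAi replicates 6 to 8 share low RpL38, RpL23A and RpS20 and high RpL3 and RpLP0.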

How the data were processed

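The authors aligned the reads of each library with STAR to BDGP6, counted molecules per gene and barcode with the Drop-seq tools, chose barcodes by the knee of the read distribution and deposited raw UMI counts without normalization. The version of STAR is not given in the sources used here. From these counts, UMIs of cells with 200 to 2500 detected genes were summed per library and class (at least 10 cells); cells that met both the myoblast and the epithelial rule were left out as possible doublets, and no doublet caller was run. Shares of the 88 genes were compared over libraries by two-sided exact permutation tests, adjusted by Benjamini-Hochberg over 6 tests. All genes were tested by edgeR 4.0.16 (quasi-likelihood, TMM, filterByExpr; library as block between classes), with DESeq2 1.42.0 as an alternative, in R 4.3.3 and Python 3.11.15 (numpy 2.4.6, scipy 1.17.1, pandas 2.3.3), and called at an adjusted p below 0.05. The SE of an edgeR log2 fold change was derived as its absolute value over the square root of the F value of the test. The edgeR script was tested on simulated data. Names were matched to the Ensembl annotation of BDGP6. Named genes were the 6 most abundant members, duplicate pairs, the 5 largest called changes per direction and comparison, 3 translation factors per direction, sta and Rack1; RpL3, RpLP1, RpL17, RpL39, RpS2, RpS4, RpS7, RpS9, RpS20 and others outside this rule were named after their values were seen. Members and lists were chosen with earlier results of these data known. Alternatives were other class rules, the study's cell filters (28S rRNA below 1.5%, heat shock below 6% and mitochondrial UMIs below 10%), 3 marker UMIs, totals, scalings, filters and left-out libraries.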

Additional observations from a re-analysis of the deposited data

Results flagged for a closer look

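For 24 members and the summed share, the libraries of a group of 4 were searched for a value far from the others (Dixon's test), and 11 of 100 such groups held one. Chance flags about 1 in 20 groups, but these share the same libraries and their members vary together, so that the count cannot be read against that rate. Of these, 10 were in mCherry-RNAi replicate 5, which stood above the other 3 libraries of its line. In myoblasts of this library, RpLP2 stood at 7962 CPM (next highest 5922), RpL38 at 4854 (2162), RpS9 at 6180 (3899), RpL37a at 3669 (1918), RpL30 at 3520 (2255) and RpS20 at 7523 (3727). In its epithelium, RpS25 stood at 6478 CPM (next highest 4621), RpL38 at 3265 (1564), RpS9 at 5649 (3310) and RpS20 at 6242 (2662). In mCherry-RNAi replicate 6, RpL22 stood at 2606 CPM in myoblasts (next highest 1628).

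The ratio of the myoblast to the epithelial share differed between the wild-type lines, with a mean of 1.19 (1.1738 to 1.2075) in 1151>mCherry-RNAi and 1.15 (1.1296 to 1.1733) in 1151-GAL4, n = 4 each (two-sided exact permutation test of the line labels, p = 0.0286, the smallest possible). As a difference in points, the lines were 4.86 (4.36 to 6.07) and 5.57 (4.89 to 6.42), in the opposite order, with exact permutation p = 0.286. The order of the lines thus depends on whether a ratio or a difference is taken.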

How the results depend on the processing

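Alternatives of the tests of shares were set against an unadjusted p of 0.05, main and alternative alike, whereas the report reads the p adjusted over the 6 tests. The myoblast difference kept its direction in every alternative and library left out (5.04 to 5.34 points), but without the replicate block, over all class values, the exact permutation p was 0.173 at 5.21 points. Within 1151-GAL4 (5.57) or 1151>mCherry-RNAi alone (4.86), alternatives chosen after seeing the data, the exact permutation test gave p = 0.125, the smallest that 4 libraries allow. The tracheal difference was 1.86 or 2.14 points in either library, and 1.81 (exact p = 0.0313) over 7 libraries with 4 or more tracheal cells, also chosen after seeing the data. The line difference ranged from -14.03 to -10.6 points in epithelium and -15.1 to -11.2 in myoblasts when a library was left out, with exact p from 0.0286 to 0.0571. The difference of the libraries labelled Ama-RNAi ranged from -6.99 to -0.72 in epithelium and from -10.1 to -5.22 in myoblasts, and reversed to 1.88 against 1151>mCherry-RNAi.

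Of the members, 79 were called higher in myoblasts (78 to 81 with a library left out, 1 without the replicate block, where 509 of 4682 genes were). Without the low-count filter 61 were higher and 1 lower, beside 953 and 1791 of 16156 genes. In tracheal cells, 3 were called higher with library totals, beside 113 of 6962 genes. Without the filter 10 were lower there, beside 208 of 15387, a setting that moved the median of the genes of the main test from -0.07 to -0.19. Leaving out either library left no residual degrees of freedom and was not run, nor was the comparison at 500 to 1000 UMIs, for want of tracheal cells. Between lines, 7 were called lower, 20 with DESeq2, 37 with library totals, 12 without the filter, and 0 to 65 with a library left out. The count of all genes called lower was 192 in the main fit, 183 with DESeq2, 338 without the filter and 29 to 404 with a library left out. Over all genes, library totals moved the split between lines from 337 higher and 192 lower to 287 and 264. The cause of these changes was not tested. No member was called higher between lines, or in either direction for the libraries labelled Ama-RNAi, in any alternative. For single named genes, 237 values kept direction and call, 47 lost the call and none reversed.

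The replicate numbers shared by libraries labelled Ama-RNAi and wild type (1, 4 and 5) did not pair them: deviations of same-numbered libraries correlated at 0.28, 0.03 and -0.21 over 1866 genes. Over all pairs r ranged from -0.46 to 0.50. Ama-RNAi replicate 1 stood at 0.45 with mCherry-RNAi replicate 5 and at -0.41, -0.46 and -0.34 with replicates 6, 7 and 8. Ama-RNAi replicate 5 stood at -0.21, 0.28, 0.50 and 0.42 with the same 4 libraries. Some libraries were thus alike across genotypes, and what they share was not tested. With the replicate number as a block, the epithelial difference was -7.99 points (exact permutation p = 0.25, the smallest possible) and 0 members were called.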

Other observations

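Cells that met no class rule lay between the epithelium and the myoblasts of their own library in the share of the 88 genes in 8 of 8 wild-type libraries, from 23.7% in mCherry-RNAi replicate 7 to 41.8% in 1151-GAL4 replicate 2. The 8 to 257 cells per wild-type library that met both the myoblast and the epithelial rule held 23.8 to 41.7%.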
